A study of Mus musculus with 12 samples.

Results

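The plasminogen activation genes examined here were the 2 plasminogen activators Plat and Plau, the urokinase receptor gene Plaur, the inhibitor genes Serpine2 and Serpinb2, and Anxa2 and S100a10, whose products form a cell-surface receptor for plasminogen. They were chosen by name from the components of the system, and all 7 were found among the 52636 gene identifiers of the count files. Lymphatic endothelial cells (LECs) of lungs from the Prox1-EGFP strain, in which the Prox1 promoter drives green fluorescent protein, were sorted for RNA sequencing as viable CD31-positive, GFP-positive cells without EpCAM or hematopoietic lineage markers. The reporter was shared by every group. The 12 libraries were 2 acute RA, 2 acute CS, 3 chronic RA and 5 chronic CS libraries, where CS is cigarette smoke and RA is room air alone. Whole-body exposure began at 6 weeks of age and lasted 8 weeks for the acute groups, which the labels give as an age, and at least 24 weeks for the chronic groups, which the labels call Aged. Each acute group had 1 female and 1 male library (F and M), chronic RA had F, M1 and M2, and chronic CS had F and M1 to M4. Acute libraries were pooled from 2 to 5 mice of a condition and chronic libraries were not, so pooling, age and exposure length cannot be told apart when acute and chronic groups are compared.

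Plasminogen activation ends in plasmin, the protease that dissolves fibrin. Tissue-type activator (tPA, from Plat) acts mainly on plasminogen bound to fibrin, whereas urokinase (uPA, from Plau) acts largely at the cell surface, where its receptor (uPAR, from Plaur) holds it. Serpins close the system by trapping the activators, and endothelial cells also bind plasminogen and tPA through the annexin A2 and S100A10 complex. Endothelial cells are a main source of tPA, which they store and release when stimulated.

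Library totals ran from 18821438 to 56998590 counts, and 3 counts corresponded to between 0.0507 and 0.158 CPM (counts scaled to the TMM-adjusted library total). Prox1 and Flt4, which define lymphatic endothelium, were at 1042 CPM or more in every library, whereas Ccl21a, another lymphatic marker, reached at most 1.06 CPM. The acute CS libraries differed from acute RA in their markers. Their summed level of the 8 lymphatic markers was 5910 to 9098 CPM against 13545 to 15272 CPM in acute RA, with 7 of the 8 lower and 2 of them past the test (Prox1 and Flt4). The 8 leukocyte markers summed to 1374 to 1655 CPM against 187 to 196 CPM, with 7 of the 8 past the test, and the 12 blood endothelial markers to 6340 to 7080 CPM against 2677 to 3585 CPM, with 7 of the 12 past it. In addition, acute CS F held 9075 CPM of 11 alveolar epithelial markers and 1138 CPM of 8 neutrophil markers, where acute CS M held 287 and 21.6 CPM. Both acute RA libraries lay between them for epithelial markers (1114.6 to 1896.5 CPM), and their neutrophil sums (10.6 to 29.3 CPM) enclosed that of acute CS M. Acute CS M was the higher for erythroid (697 against 10.6 CPM), mesenchymal (1093 against 714 CPM) and macrophage markers (2921 against 2679 CPM). For erythroid markers acute RA again lay between them (37.7 to 69.9 CPM). After chronic exposure, all 5 CS libraries exceeded all 3 RA libraries in the summed markers of alveolar epithelium (1240 to 5302 against 269 to 546 CPM), mesenchyme (248 to 434 against 134 to 169 CPM) and neutrophils (22.9 to 163 against 5.19 to 14.1 CPM), although edgeR called none of these genes. In bulk RNA, fewer cells of a type and less RNA per cell cannot be told apart.

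**Figure D1:**
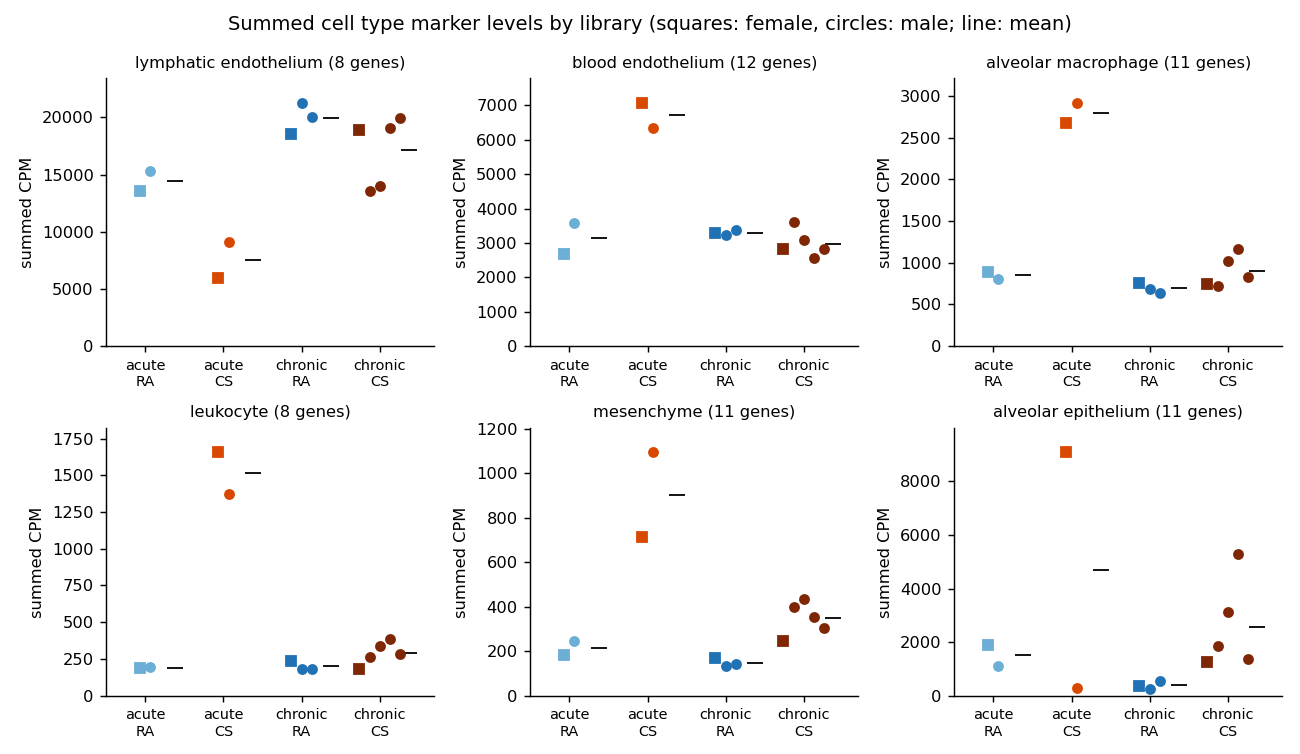
Summed CPM (y axis) of 6 lists of cell type markers in each library, by group (x axis). Squares are female and circles male libraries, and the line is the group mean. The acute CS libraries lie below acute RA for lymphatic markers (5910 to 9098 against 13545 to 15272 CPM) and above it for blood endothelial, macrophage, leukocyte and mesenchymal markers. For epithelial markers acute CS F lies above acute RA and acute CS M below it.

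The genes lie apart in the mouse genome (GRCm38) apart from the 2 serpins, which are both on chromosome 1. Plat (ENSMUSG00000031538) is at chr8:22757727-22782844 on the plus strand, Plau (ENSMUSG00000021822) at chr14:20836660-20843385 on the plus strand, and Plaur (ENSMUSG00000046223) at chr7:24462484-24475968 on the plus strand. Serpine2 (ENSMUSG00000026249) is at chr1:79794197-79861180 on the minus strand and Serpinb2 (ENSMUSG00000062345) at chr1:107511423-107535478 on the plus strand. Anxa2 (ENSMUSG00000032231) is at chr9:69453620-69491795 and S100a10 (ENSMUSG00000041959) at chr3:93555080-93564643, both on the plus strand. The 3 prime part of Serpinb2 overlaps Serpinb10 on the same strand, and the transcripts of these neighbours share an identical stretch of 238 bases, so the few Serpinb2 counts are uncertain. Anxa2 also overlaps Mir3109 and the antisense gene Gm16144, which held 477 counts over the 12 libraries against 399200 for Anxa2. The other genes shared no stretch of 100 or more bases at 95% identity with another gene's transcripts.

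Promoter sequence was at hand for 4 of the 7 genes, in RefSeq entries on GRCm38.p6, and not for Plat, Plau and S100a10. The 250 bases before the transcription start are shown for 3 genes at very different levels in these cells: Anxa2 (chr9:69453433-69453682, plus strand), Plaur (chr7:24462233-24462482, plus strand) and Serpinb2 (the first of 2 starts, chr1:107511173-107511422, plus strand). Capitals mark matches, on either strand, to the letters of an AP-1 element (TGANTCA), an NF-kB element (GGGNNTNCC), a TATA box (TATAAA) or a GC box (GGGCGG).
Anxa2: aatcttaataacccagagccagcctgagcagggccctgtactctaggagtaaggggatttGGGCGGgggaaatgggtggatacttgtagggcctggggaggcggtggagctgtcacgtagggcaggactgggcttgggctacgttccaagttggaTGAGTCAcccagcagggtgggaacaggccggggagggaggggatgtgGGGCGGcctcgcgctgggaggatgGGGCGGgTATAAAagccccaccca
Plaur: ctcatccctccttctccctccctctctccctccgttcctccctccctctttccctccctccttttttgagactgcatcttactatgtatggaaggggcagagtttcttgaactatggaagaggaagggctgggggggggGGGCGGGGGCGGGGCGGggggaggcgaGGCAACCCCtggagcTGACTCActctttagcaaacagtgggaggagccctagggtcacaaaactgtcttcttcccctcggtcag
Serpinb2: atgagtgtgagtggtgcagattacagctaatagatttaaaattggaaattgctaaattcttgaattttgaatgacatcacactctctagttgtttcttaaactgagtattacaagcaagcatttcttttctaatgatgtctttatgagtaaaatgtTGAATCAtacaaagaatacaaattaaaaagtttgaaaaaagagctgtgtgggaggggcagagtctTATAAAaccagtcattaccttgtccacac

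All of these 3 promoters held 1 match to the AP-1 letters, which 6.75% of the 32851 promoters in the table held. The match lay 95 to 89 bases before the start in Anxa2, 69 to 63 bases before it in Plaur and 94 to 88 bases before it in Serpinb2. The Serpine2 promoter (chr1:79858666-79858915, minus strand) had none. Anxa2 and Serpinb2 also held TATAAA, 17 to 12 and 29 to 24 bases before the start, a match found in 12.4% of promoters. The NF-kB letters, present in 14% of promoters, were matched only in Plaur among the 4 genes, on the strand opposite to the gene and 84 to 76 bases before its start. GC boxes (32.7% of promoters) numbered 3 in Plaur, 3 in Anxa2, 6 in Serpine2 and none in Serpinb2, and 2 of them overlap by 1 base in both Plaur and Serpine2. The CRE letters (TGACGTCA, 1.55% of promoters) matched in none of the 4. The windows differed in base composition, with 32.4% G and C in Serpinb2, 59.6% in Plaur, 62.4% in Anxa2 and 78.8% in Serpine2, against a median of 52.4% over all promoters. A match describes the letters and not a bound site.

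In LECs of mice kept in room air, the genes of the plasminogen receptor complex were by far the most abundant members, and both activator genes lay far below them. Levels of different genes were compared as FPKM, CPM divided by the exon length in kilobases. Over the 5 RA libraries S100a10 stood at 287 FPKM ± 25.9 (SD, n = 5) and Anxa2 at 231 ± 26.7 FPKM, ranks 102 and 144 of the 21440 genes that passed the filter on low counts. Their ranges over these libraries overlapped, although S100a10 was the higher in each. Plaur followed at 54.8 ± 1.54 FPKM (rank 958), and its range of 52.2 to 56.0 FPKM touched no neighbour's. Plau (10.5 ± 3.28 FPKM) and Serpine2 (8.14 ± 2.36 FPKM) overlapped and changed places between libraries. Plat was lowest of the tested members at 3.93 ± 0.596 FPKM, and its range of 3.0 to 4.60 FPKM lay under those of both. Serpinb2 was near 0, with 12 counts in all.

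The order held with few exceptions in the other libraries. S100a10, Anxa2 and Plaur took the first 3 places in that order in 11 of 12 libraries, and in acute CS F Anxa2 came before S100a10. The S100a10 to Anxa2 ratio of FPKM was 0.940 in acute CS F and between 1.13 and 1.5 in the other 11 libraries. It overlapped between CS and RA at both exposure lengths (exact two-sided permutation tests, p = 1 acute and 0.286 chronic). Plat ranked last of the 6 tested members in every library outside acute CS.

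Comparison of acute CS with acute RA asked how smoke of 8 weeks altered the expression of these genes. Both acute CS libraries had more Plat, more Plaur and less Plau than both acute RA libraries, while Serpine2, Anxa2 and S100a10 overlapped between the groups. None of the 6 tested members passed an adjusted p of 0.05 in edgeR's quasi-likelihood test, against 3.47% of all genes (745 of 21440), whereas Plat, Plau and Plaur had an unadjusted p under 0.05 (15.7% of all genes) and were called by DESeq2 (9.15% of all genes). Groups that do not overlap are common with 2 libraries on each side, since 49.9% of all genes showed them, so 3 of 6 members is near that share. The exact permutation test on single genes cannot go below p = 0.333 here.

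Plat, the gene of tPA, was at 25.04 CPM in acute RA F and 18.7 CPM in acute RA M. It was at 77.2 CPM in acute CS F and 41.2 CPM in acute CS M. Both smoke libraries lay above both controls, and acute CS F was far above acute CS M. The mean was 59.2 ± 25.4 CPM (SD, n = 2) with smoke and 21.9 ± 4.45 CPM without, and the fitted log2 fold change was 1.43 (SE 0.37, 95% interval 0.61 to 2.26, edgeR adjusted p = 0.0646, DESeq2 adjusted p = 0.00382). Without acute CS F the log2 fold change was 0.92 (edgeR adjusted p = 0.479) and without acute CS M it was 1.82.

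Plau, the gene of uPA, went the other way. It was at 33.4 CPM in acute RA F and 32.0 CPM in acute RA M, close to each other. It was at 6.16 CPM in acute CS F and 12.5 CPM in acute CS M, both under all 10 other libraries. The fitted log2 fold change was -1.81 (SE 0.46, 95% interval -2.82 to -0.81, edgeR adjusted p = 0.0568, DESeq2 adjusted p = 0.00192). The estimate was -1.39 without acute CS F (edgeR adjusted p = 0.395) and -2.41 without acute CS M.

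Plaur encodes the receptor that binds uPA to the cell surface. Its acute RA libraries were nearly equal at 146 CPM each, F at 145.5 and M at 146.4 CPM. Acute CS F reached 317 CPM and acute CS M 216 CPM, the highest values of the 12 libraries. The fitted log2 fold change was 0.87 (SE 0.24, 95% interval 0.35 to 1.39, edgeR adjusted p = 0.0750, DESeq2 adjusted p = 0.00900), and 0.57 without acute CS F (edgeR adjusted p = 0.495). Thus in each of the 3 genes acute CS F lay farther from acute RA than acute CS M did. Acute CS F was also the library with the lowest lymphatic and the highest leukocyte marker sum, and both acute CS libraries had more blood endothelial marker RNA than acute RA, most in acute CS F. The part of other cells in these differences, and in the ratio of Plat to Plau, was not tested.

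The inhibitor gene Serpine2, whose product protease nexin-1 traps uPA, plasmin and thrombin, was lower in the female than in the male library of both acute groups. The female libraries were at 41.7 CPM in acute RA and 43.7 CPM in acute CS, and the male libraries at 76.7 and 99.4 CPM. With 1 library for each sex and condition the sexes were not tested. The fitted log2 fold change for CS was 0.27 (95% interval -0.72 to 1.27, edgeR adjusted p = 0.883). Serpinb2, which encodes plasminogen activator inhibitor 2, had no count in any acute library.

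Anxa2, the plasminogen-binding annexin, was at 831 and 928 CPM in acute RA F and M and at 773 and 1048 CPM in acute CS F and M. S100a10, the gene of its partner, was at 374 and 366 CPM in acute RA and at 236 and 480 CPM in acute CS. The male smoke library was the highest and the female one the lowest of the 4 acute libraries for both genes. Their log2 fold changes were 0.05 (95% interval -0.40 to 0.51, edgeR adjusted p = 0.967) and -0.05 (95% interval -0.60 to 0.51, edgeR adjusted p = 0.975).

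**Figure D2:**
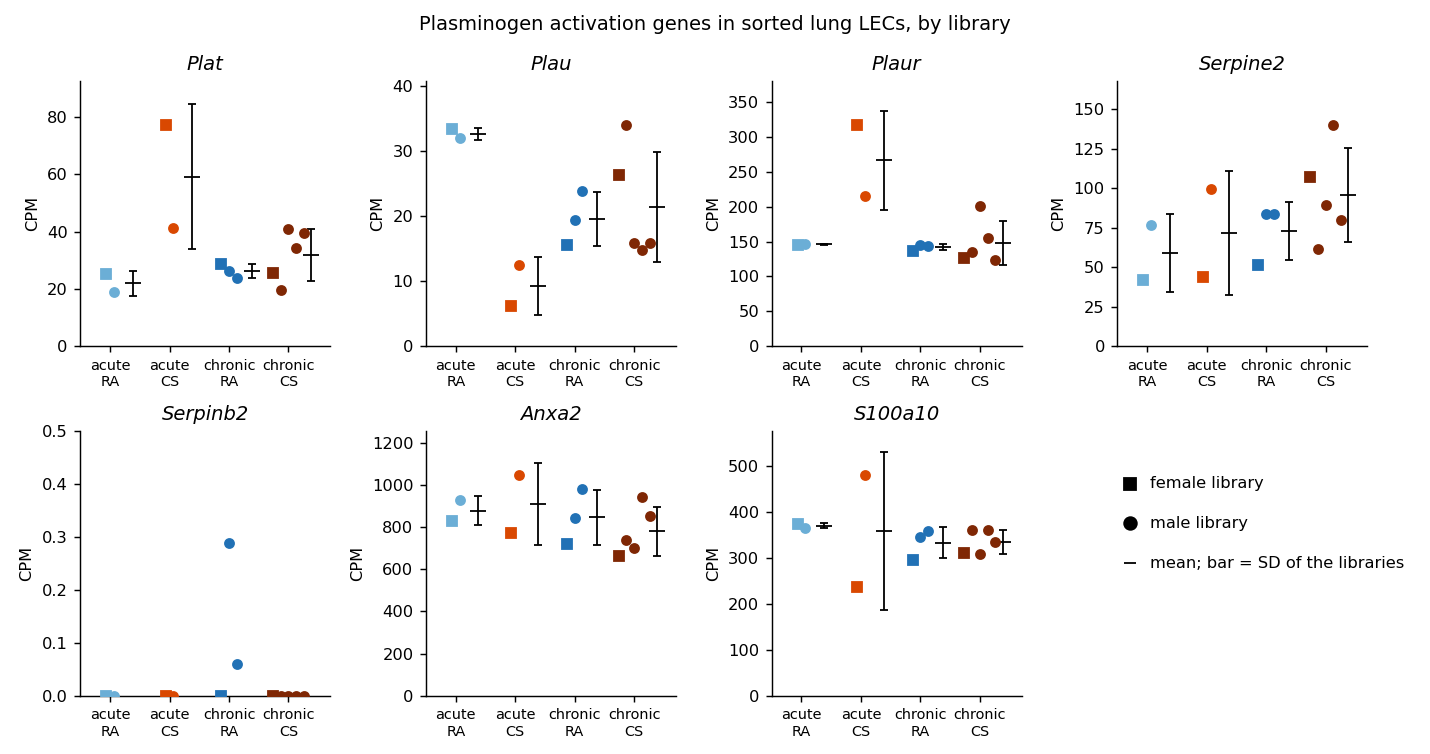
CPM (y axis, from 0) of each gene in the 12 libraries by group (x axis), with squares for female and circles for male libraries. The line and bar are the mean and the SD of the libraries, left out for Serpinb2, which had counts in 2 chronic RA libraries only. Acute CS is above acute RA for Plat and Plaur and below it for Plau, and the groups overlap for Serpine2, Anxa2 and S100a10.

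Because Plat and Plau differed in opposite directions, the ratio of their FPKM was computed in each library, a measure chosen after both genes' values had been seen. Plat was below Plau in both acute RA libraries, with ratios of 0.284 (F) and 0.222 (M). It was above Plau in both acute CS libraries, with ratios of 4.75 (F) and 1.25 (M). These were the only libraries of the 12 in which Plat exceeded Plau. The difference in the mean log2 ratio was 3.28 (exact permutation p = 0.333, the smallest the design allows). In chronic RA the ratio was 0.698 (F), 0.516 (M1) and 0.375 (M2), and in chronic CS it ran from 0.217 to 0.970 with a median of 0.878, so the chronic groups overlapped (log2 difference 0.17, exact permutation p = 0.821).

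**Figure D3:**
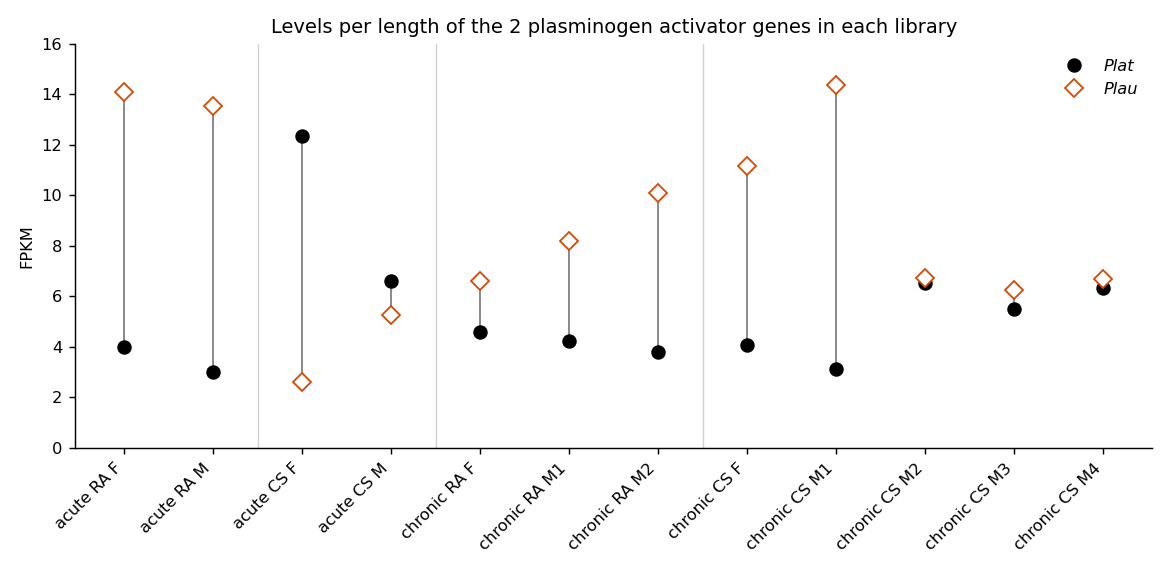
FPKM (y axis) of Plat (filled circles) and Plau (open diamonds) in each of the 12 libraries (x axis), joined by a line within a library. Plat is above Plau in acute CS F and acute CS M, and below it in the other 10 libraries.

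After chronic exposure, none of the members separated CS from RA. No member was called by edgeR or by DESeq2, none had an unadjusted p under 0.05 in edgeR, and none had groups that do not overlap. Over all genes edgeR called 0% in this comparison, with 10.9% (2341 of 21440) at an unadjusted p under 0.05 and 2.44% (524) called by DESeq2, and 9.41% of genes had groups that do not overlap. The exact permutation test could reach p = 0.0357 with 5 against 3 libraries.

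Plat was at 28.7, 26.4 and 23.7 CPM in chronic RA F, M1 and M2. The chronic CS libraries F and M1 were at 25.4 and 19.5 CPM, and M2, M3 and M4 at 40.7, 34.3 and 39.4 CPM. Of the smoke libraries 3 thus lay above all controls and M1 below them (log2 fold change 0.28, 95% interval -0.32 to 0.88, edgeR adjusted p = 0.736). Plau was at 15.6, 19.4 and 23.9 CPM in chronic RA F, M1 and M2. The chronic CS libraries F and M1 were at 26.4 and 34.0 CPM, and M2, M3 and M4 at 15.9, 14.8 and 15.9 CPM. The chronic CS libraries with more Plat (M2, M3 and M4) were those with less Plau, and the remaining libraries (F and M1) had less Plat and more Plau. The fitted log2 fold change of Plau was 0.12 (95% interval -0.59 to 0.84, edgeR adjusted p = 0.918), and it was -0.36 with only M3 and M4 in chronic CS and 0.39 with only F, M1 and M2.

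Plaur was at 137, 146 and 144 CPM in chronic RA F, M1 and M2 (SD 4.74 CPM, against 0.637 CPM in acute RA). Chronic CS gave 127, 134, 201, 155 and 124 CPM in F and M1 to M4 in turn. Only M2 stood well above the controls (log2 fold change 0.06, 95% interval -0.31 to 0.44, edgeR adjusted p = 0.922), and without it the estimate was -0.07. The chronic interval for Plaur ended at 0.44, below the acute estimate of 0.87, but it overlapped the acute interval of 0.35 to 1.39.

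Serpine2 had the largest chronic estimate of the 6, a log2 fold change of 0.39 (95% interval -0.35 to 1.12, edgeR adjusted p = 0.702). Under the alternative settings it ran from 0.20 to 0.59, which overlapped the 0.05 to 0.49 of Plat. Serpine2 was at 51.6, 83.5 and 83.9 CPM in chronic RA F, M1 and M2. Chronic CS F was at 107 CPM and M1 to M4 were at 61.3, 89.4, 140 and 79.9 CPM. The low value of the female control was not repeated in the female smoke library. Serpinb2 had 10 counts in chronic RA M1 and 2 in chronic RA M2 and none in the other 10 libraries, where a count of 0 allows at most 0.158 CPM in the shallowest library. No fold was computed for it.

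Anxa2 was at 719, 844 and 979 CPM in chronic RA F, M1 and M2 and between 664 and 945 CPM in chronic CS, with a median of 737 CPM (log2 fold change -0.12, 95% interval -0.45 to 0.21, edgeR adjusted p = 0.806). S100a10 was at 295, 346 and 359 CPM in chronic RA and between 309 and 360 CPM in chronic CS, with a median of 334 CPM. Its log2 fold change was 0.01 (95% interval -0.40 to 0.41, edgeR adjusted p = 0.997). Over the 12 libraries S100a10 left the range of 295 to 374 CPM in the acute CS libraries alone.

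**Figure D4:**
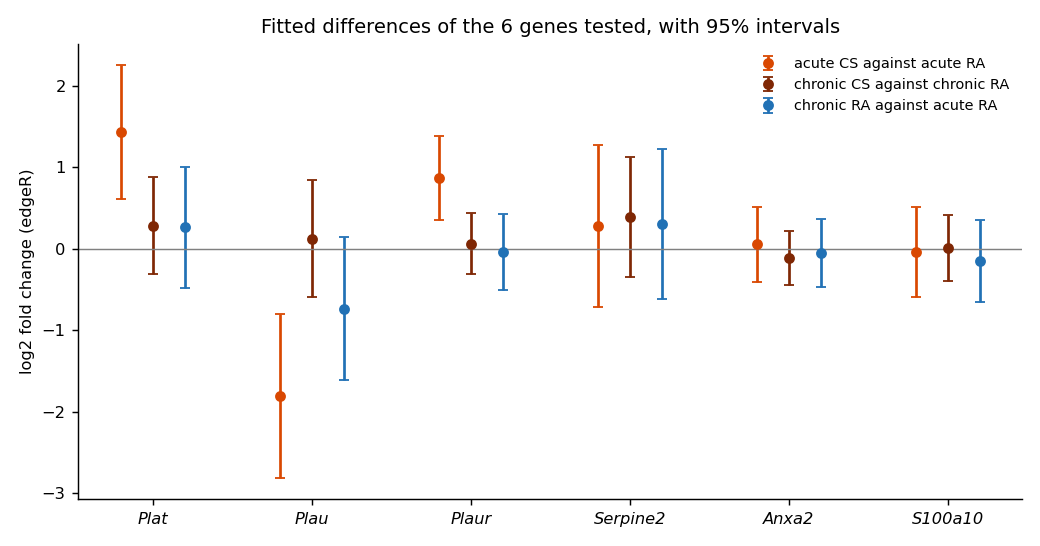
Fitted log2 fold changes (y axis, edgeR) of the 6 genes tested (x axis) in 3 comparisons, with 95% intervals as bars. The acute smoke intervals of Plat (0.61 to 2.26), Plau (-2.82 to -0.81) and Plaur (0.35 to 1.39) lie off 0, and every other interval includes it.

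The difference between the acute and the chronic smoke effect was tested directly as an interaction in the same model. For Plau the acute log2 fold change was lower than the chronic one by 1.94 (unadjusted p = 0.00525, edgeR adjusted p = 0.172, DESeq2 adjusted p = 0.0179). For Plat the acute value was higher by 1.15 (unadjusted p = 0.0273, edgeR adjusted p = 0.341) and for Plaur by 0.81 (unadjusted p = 0.0176, edgeR adjusted p = 0.291). None of the 6 was therefore called by edgeR, against 0.452% of all genes, although 3 had an unadjusted p under 0.05 (11.9% of all genes) and DESeq2 called Plau (4.29% of all genes). For the other 3 the edgeR adjusted p was 0.880 or more. Under the alternative settings the acute minus the chronic value ran from -2.53 to -1.46 for Plau, 0.64 to 1.54 for Plat and 0.51 to 1.06 for Plaur. The acute and chronic arms also differed in pooling.

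The RA controls of both ages were compared for the levels without smoke. Plau was lower in each chronic RA library (15.6 to 23.9 CPM) than in both acute RA libraries (32.0 and 33.4 CPM), with a log2 fold change of -0.74 (edgeR unadjusted p = 0.0920, adjusted p = 0.739). Plaur and S100a10 were lower in all chronic RA libraries as well, by small amounts (log2 fold changes of -0.04 and -0.15). Plat, Serpine2 and Anxa2 overlapped, with log2 fold changes of 0.26, 0.30 and -0.05. Groups that do not overlap were thus found for 3 of 6 members and for 34.7% of all genes, with an exact permutation p of 0.2, the smallest possible. No member was called by edgeR or DESeq2 or had an unadjusted edgeR p under 0.05, and edgeR called 0% of all genes (7.01% at an unadjusted p under 0.05, 1.18% called by DESeq2). The Plau values of acute CS (6.16 and 12.5 CPM) were also under those of every chronic RA library.

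A list of 22 other genes of the pathway held substrates, receptors, further inhibitors and clot components, and 14 of them passed the filter. In acute CS, 13 of the 14 had a positive log2 fold change (53.0% of all genes), with a median of 1.04 against 0.04 over all genes. At an unadjusted p under 0.05 there were 4 (15.7% of all genes), and 2 rose past the adjusted threshold (2.75% of all genes), Lrp1 and Thbd. Plg and F12 had no count in acute RA, and the median was the same with both set at the floor of 3 counts per library. In acute CS F and M, F12 had 46 and 0 counts and Plg 6 and 13. The markers of blood endothelium (12 of 12), leukocytes (8 of 8) and mesenchyme (11 of 11) were positive in acute CS as well, and 7 of 8 lymphatic markers were lower. The part of these cells in the acute values of the list was not tested. After chronic CS 10 of 14 were positive (51.3% of all genes) and none passed in edgeR, with a median of 0.55 against 0.01. At an unadjusted p under 0.05 there were 4 (10.9% of all genes), and DESeq2 called 3 (2.44% of all genes), Lrp1, Mrc2 and Ahnak. The chronic CS libraries also had more mesenchymal, epithelial and neutrophil marker RNA, with 9 of 11 mesenchymal, 9 of 11 epithelial and 4 of 8 neutrophil markers at an unadjusted p under 0.05. Macrophage and blood endothelial markers were positive in 10 of 11 and 11 of 12, with 5 of each list at an unadjusted p under 0.05. Among them Plvap was lower (log2 fold change -0.36), and both summed levels overlapped chronic RA. The part of these cells in the list was not tested. In the RA comparison none passed in edgeR or DESeq2, and 1 had an unadjusted p under 0.05 (7.01% of all genes). Plg itself, the plasminogen gene, reached at most 0.683 CPM in any library, near the floor of 3 counts in most of them.

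Lrp1 encodes the endocytic receptor that clears activators bound to their inhibitors. It was at 17.1 and 7.76 CPM in acute RA F and M and at 156 and 87.3 CPM in acute CS F and M, a log2 fold change of 3.29 (SE 0.63, edgeR adjusted p = 0.0184). Lrp1 is also abundant in macrophages and mesenchymal cells, whose summed markers were higher in acute CS (macrophage 2679 to 2921 against 805 to 889 CPM, mesenchyme 714 to 1093 against 185 to 245 CPM). Of the 11 macrophage markers 10 were higher, 4 of them past the test. Mrc1, which averaged 647 CPM in acute RA, was lower at 338 CPM in acute CS (log2 fold change -0.94, edgeR adjusted p = 0.0155). The part of these cells in the Lrp1 value was not tested. Thbd encodes thrombomodulin, which turns thrombin towards protein C and towards an inhibitor of fibrinolysis. It was at 549 and 548 CPM in acute RA F and M and at 1808 and 1173 CPM in acute CS F and M, a log2 fold change of 1.44 (SE 0.25, edgeR adjusted p = 0.0117). Thbd is also expressed by blood endothelium, whose summed markers were higher in acute CS (6340 to 7080 against 2677 to 3585 CPM) while the lymphatic ones were lower, and its part in the value was not tested. Neither gene was called when acute CS F, acute RA F or acute RA M was left out, nor with the acute libraries fitted alone, settings in which the share of all genes called dropped to between 0.013% and 0.768%. In these settings the log2 fold change was 2.80 to 3.97 for Lrp1 and 1.1 to 1.45 for Thbd. A replicate block by sex and number also called neither gene (edgeR adjusted p = 0.0526 for Lrp1 and 0.0547 for Thbd, with 0.34% of all genes called).

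By level, Thbd led this list in RA libraries at 134 ± 23.01 FPKM (n = 5), followed by the plasminogen-binding enolase gene Eno1 (40.4 ± 2.45 FPKM), the S100A10 partner gene Ahnak (25.1 ± 4.42 FPKM), the plasminogen receptor gene Plgrkt (20.3 ± 2.93 FPKM) and Igf2r (3.32 ± 1.34 FPKM), whose product binds uPAR. Of these, edgeR called only Thbd in a smoke comparison, and DESeq2 also called Ahnak after chronic CS. Eno1 and Plgrkt had acute log2 fold changes of 0.21 and 0.02 and chronic ones of -0.05 and -0.01.

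**Figure D5:**
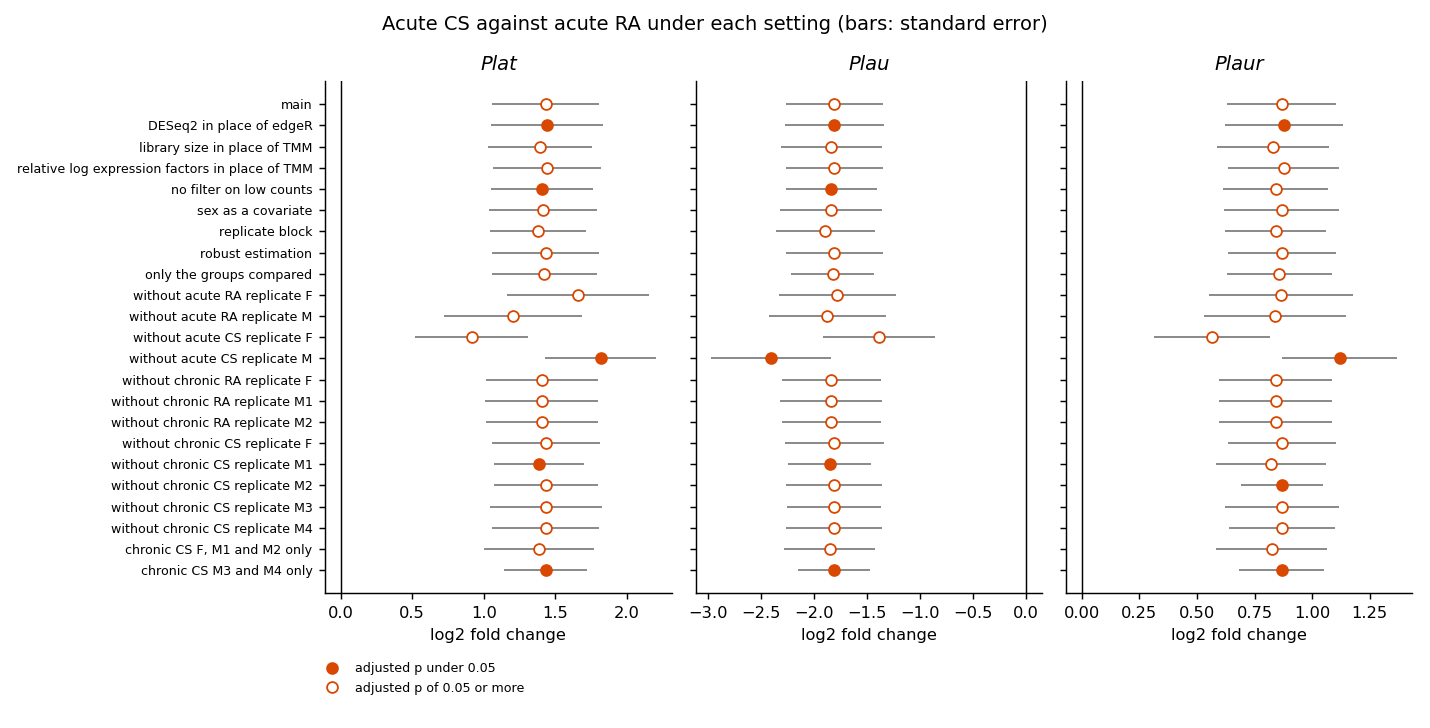
Log2 fold change (x axis) of Plat, Plau and Plaur in acute CS against acute RA under each setting of the analysis (y axis), with standard errors as bars and filled points where the adjusted p is under 0.05. The sign is the same in every setting, and the values nearest to 0 are those without acute CS F (0.92, -1.39 and 0.57).

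Genes whose levels followed each member most closely over the 12 libraries were ranked by Pearson's r of log2 CPM, a description in which all points share their libraries and the acute CS values. For Plat they were Mtus1 (r = 0.956), Bpgm (0.952) and Sema3c (0.947), for Plau Stox2 (0.926), Emid1 (0.923) and Pmvk (0.917), and for Plaur Nkd1 (0.971), Btg3 (0.959) and Glis2 (0.957). For Serpine2 they were Apod (0.861), Sncg (0.841) and Adi1 (0.839), and for S100a10 Banf1 (0.921), Hcfc1r1 (0.835) and Arl6ip1 (0.832). Anxa2 was followed by Fkbp1a (0.907), Akirin2 (0.905) and Mm2pr (0.898), the last of which averaged only 0.123 CPM. No gene was shared between these lists, and no member was among the 3 closest genes of another.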

How the data were processed

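RNA of sorted lung LECs was sequenced in 12 libraries of polyadenylated RNA (SMART-Seq v4, Nextera XT). The deposited values are raw read counts per Ensembl gene. The authors checked reads with FastQC 0.11.9, trimmed with Skewer, ran Minion, aligned to GRCm38 with STAR and counted with its GeneCounts mode, which keeps uniquely mapped reads. The annotation release and strand setting are not given in the sources used here. Libraries of a group are separate pools (acute) or mice (chronic).

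Counts were analysed with edgeR 4.0.16 in R 4.3.3. Of 52636 identifiers 52489 were in GENCODE M21, and the other 147 held at most 0.011% of a library. The filter by expression left 21440 genes. All libraries entered a single quasi-likelihood F-test fit with 1 mean per group and TMM factors, with Benjamini-Hochberg adjustment over all genes and a threshold of 0.05. CPM and FPKM used TMM-scaled totals and the union of exons, and a prior count of 2 was added before log2 CPM was taken. Scripts were tested on simulated counts. Transcripts were compared with blastn 2.17.0. Single values were compared by exact two-sided permutation tests with SciPy 1.17.1, which cannot go below 0.333, 0.0357 and 0.2 for the acute, chronic and RA comparisons. Intervals are 95% intervals of the fit, and the floor of 3 counts covers counting error only.

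Alternatives were DESeq2 1.42.0, other scaling, no filter, sex as a covariate, a replicate block, robust estimation, only the groups compared, each library left out, and parts of chronic CS. The members, the pathway list and the marker lists were chosen with earlier results of these data known. The genes named are the members, pathway genes called in a smoke comparison or among the 5 highest in RA, Plg, marker genes beside a member, and the 3 genes most like each member. Mrc2, F12, Mrc1 and Plvap were named after their values were seen. One further inhibitor gene is not reported here.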

Additional observations from a re-analysis of the deposited data

How the results depend on the processing

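Over 24 fold changes of 6 members in 4 comparisons, 522 alternative values were computed, of which 478 kept their direction and their side of the threshold, 15 passed it and 29 changed sign. Plat (0.92 to 1.82), Plau (-2.41 to -1.39) and Plaur (0.57 to 1.12) kept their acute direction in all 22 alternatives, with adjusted p from 0.00192 to 0.495. The number of members called in acute CS, 0 in edgeR, was 3 with DESeq2 and with only chronic CS M3 and M4 (9.15% and 7.06% of all genes called, against 3.47%), 2 without the filter (2.74%), and 0 to 3 with a library left out (3 without acute CS M, 2 without chronic CS M1 and 1 without chronic CS M2, at 3.73%, 3.85% and 4.51%). For the acute minus the chronic effect it was 1 with DESeq2 (4.29% of all genes). Of the other pathway genes, 2 were called in acute CS, 0 with only the groups compared (0.701% of all genes) and 0 to 3 with a library left out (0 without acute RA F, acute RA M or acute CS F, at 0.342%, 0.013% and 0.768%), and 3 in chronic CS with DESeq2 (2.44%; 0 in edgeR). The causes were not tested.

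With the settings of the Results edgeR called no member in any comparison, so every sign change was necessarily of a value not called. With a library left out, acute values ran from -0.44 to 0.75 (Serpine2), -0.19 to 0.26 (Anxa2) and -0.65 to 0.38 (S100a10). Chronic ones ran from -0.089 to 0.30 (Plau), -0.072 to 0.12 (Plaur), -0.22 to 0.0064 (Anxa2) and -0.067 to 0.072 (S100a10), RA ones from -0.071 to 0.79 (Serpine2) and -0.18 to 0.043 (Anxa2), and acute minus chronic ones from -0.83 to 0.36 (Serpine2), -0.065 to 0.38 (Anxa2) and -0.65 to 0.37 (S100a10). With only chronic CS M3 and M4, the chronic values were -0.36 (Plau), -0.028 (Plaur) and 0.085 (Anxa2), and acute minus chronic -0.036 (Anxa2). Chronic S100a10 was -0.030 with sex as a covariate and -0.015 with only chronic CS F, M1 and M2. Library size in place of TMM moved the median of all genes in the RA comparison from 0 to -0.10.

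Libraries of the same sex and number did not deviate together (r of deviations from the group means -0.0419 to 0.0342 over 3 chronic pairs and 0.0693 in the acute groups, where groups of 2 give both pairs the same r), so they were not taken as pairs beyond their sex. A replicate block by sex and number called no member in any comparison and 0 of the other pathway genes in acute CS (0.34% of all genes called; Lrp1 3.34 and Thbd 1.41, adjusted p 0.0526 and 0.0547), and gave -0.030 for chronic S100a10 and -0.040 for Plat in the RA comparison. Fitting only the groups compared has no separate value for the acute minus the chronic effect, which uses all groups. Depth limits Serpinb2 and Plg, which were near the floor.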
